A study of Mus musculus with 10 samples.

Results

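The comparison described here is that of J1 cells transfected with an siRNA against Ino80b with J1 cells transfected with a non-targeting siRNA (NT). J1 is a mouse embryonic stem cell line. The arrays were chosen by their titles, which gave 2 Ino80b arrays and 2 NT arrays, 4 of the 10 arrays of the series. The other 6 arrays came from J1 cells that received siRNA against Ino80, Ino80c or Ino80e, 2 arrays each. All 10 RNA samples were taken at 96 hours (day 4), per the labels from cells grown in M15 medium at transfection after maintenance in ESGRO medium. The design text calls the 2 samples of a group biological replicates, and nothing given here says whether they were separate cultures, so the p-values measure the spread between these samples. The labels do not say how many siRNA sequences targeted Ino80b, and no protein was measured.

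INO80 is a chromatin remodelling complex that uses ATP to slide nucleosomes and to exchange histone variants within them. Its catalytic ATPase is Ino80, and Ino80b (also called Ies2) is an accessory subunit known from yeast to stimulate the ATPase. In mouse embryonic stem cells the complex is known for binding near genes of the pluripotency network, which is led by the transcription factors Oct4 (gene Pou5f1), Sox2 and Nanog. Embryonic stem cells shift between a naive state and a primed state that resembles the later epiblast, and a small share of them enters a state that resembles the 2-cell embryo.

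Each gene was read on a 60-base probe, and a level is the log2 processed signal minus the 75th percentile of its array, so that 0 marks that percentile. Levels of different probes are not set against each other. Of 41174 probes on an array, 27391 and 27370 were well above background on the Ino80b arrays, and 30660 and 28377 on the NT arrays. The Ino80b arrays correlated at r = 0.993 across probes and the NT arrays at r = 0.987, where probes are not independent replicates. The NT arrays lay alone on their slide and the Ino80b arrays shared a slide with the Ino80 arrays, so slide and siRNA cannot be told apart in the comparison with NT. The Ino80c and Ino80e arrays lay together on another slide, and the same limit holds for the comparisons with them. The labelled cell type was checked on embryonic stem cell markers. The levels of Pou5f1, Sox2, Nanog, Sall4, Esrrb, Zfp42, Dppa5a, Utf1 and Tdgf1 were all above the 75th percentile in both groups.

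The probes shown are those for the silenced gene, for 4 regulators that were lower in Ino80b knockdown cells and for Zscan4c. Those of 3 genes called in direct comparisons with other knockdowns follow. Sequences are from the scanner files, 5′ to 3′, with positions on build mm7. Those of Ino80b, Bmp4 and 3 of the 4 Itpr2 probes are printed whole, and the first 30 bases of the others are printed. The brightest Tfcp2l1 probe has no position in the files.
Ino80b, chr6:83149452-83149511, minus strand: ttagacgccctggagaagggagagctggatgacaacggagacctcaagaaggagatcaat
Bmp4, chr14:41704207-41704266, minus strand: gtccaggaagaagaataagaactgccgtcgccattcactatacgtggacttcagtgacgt
Nanog, chr6:122750894-122750953, plus strand: cttctgagctctatttacaacttggtgtgt
Esrrb, chr12:84523822-84523881, plus strand: ttctgataatgacgttgtggctggaatgac
Tfcp2l1, brightest probe: tatacctgactgcatggaaacggggtcacc
Zscan4c, chr7:9713271-9713330, plus strand: tcttgacagaagcctggcattccctctgac
Akr1d1, chr6:37498455-37498514, plus strand: gtcttctagactgttcatggaaatcactaa
Kera, chr10:97176083-97176142, plus strand: gcagttattataacatagcatgcaaactat
Itpr2, probe 1, chr6:146189827-146189886, minus strand: aaacaaccaagtgccaagatgctgagccat
Itpr2, probe 2, chr6:146190011-146190070, minus strand: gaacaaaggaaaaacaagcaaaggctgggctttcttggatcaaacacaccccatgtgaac
Itpr2, probe 3, chr6:146369880-146369939, minus strand: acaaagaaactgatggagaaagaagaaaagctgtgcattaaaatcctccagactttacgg
Itpr2, probe 4, chr6:146449694-146451443, minus strand: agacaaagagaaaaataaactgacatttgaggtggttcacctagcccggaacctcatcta

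The target itself was read first. The Ino80b probe stood at log2 levels of -3.05 and -3.52 on the Ino80b arrays, against -1.40 and -1.17 on the NT arrays. The groups did not overlap, and the log2 fold change was -2.003 ± 0.35 (limma, adjusted p = 0.0279; here and below, ± is the standard error of a fit to all 10 arrays, with n = 2 arrays in each group and Benjamini-Hochberg adjustment over 20662 genes). The Ino80b signal was thus 24.9% of that in NT cells, with a 95% interval of 14.1% to 44.01%. Without the second NT array the adjusted p was 0.121, and without an Ino80b array it was 0.100 or 0.186. It was 0.0583 without either Ino80c array and 0.0521 without either Ino80e array, with the log2 fold change between -2.24 and -1.76 over all arrays left out in turn. The same probe had log2 fold changes against NT of -1.39 in Ino80e, -1.11 in Ino80c and 0.30 in Ino80 knockdown cells, comparisons that share the NT arrays.

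Of the 15 measured genes of the INO80 complex, Ino80b was the only one called (adjusted p under 0.05), whereas 2 were called higher beside 1 lower with normexp background correction and 3 lower in the authors' deposited values. Among all 20662 genes, 6.41% were called, 3.75% higher and 2.66% lower in Ino80b knockdown cells. The list's median log2 fold change was 0.04, beside 0.13 over all genes. On the brightest probes, the largest difference among the other 14 was in Uchl5, a deubiquitinase bound to the complex, at 4.91 and 5.04 in Ino80b knockdown cells and 4.49 and 4.33 in NT cells (0.56 ± 0.15, adjusted p = 0.0711). Ruvbl1, an AAA+ ATPase shared with other remodellers, had a log2 fold change of 0.45 ± 0.12 (adjusted p = 0.0677), and its partner Ruvbl2 had -0.35 ± 0.14 (adjusted p = 0.147). The actin-related subunits Actr5 and Actr8 had 0.42 ± 0.18 and 0.09 ± 0.12. The DNA-binding subunit Yy1 had -0.17 ± 0.15, Nfrkb -0.07 ± 0.17, Mcrs1 0.04 ± 0.13 and Tfpt -0.04 ± 0.14, none of them called. The siRNA targets of the other groups, Ino80, Ino80c and Ino80e, had log2 fold changes of 0.32 ± 0.13, 0.43 ± 0.16 and 0.34 ± 0.28, also not called. Ino80 was read on 3 probes with log2 fold changes between 0.30 and 0.96. The highest, not on its brightest probe, was 0.96 ± 0.17 (limma, adjusted p over probes = 0.0307). The genes on the list that lie next to Ino80b on chromosome 6 (Wbp1, Mogs, Mrpl53, Rtkn, Lbx2 and Pcgf1) were not called, the largest difference being that of the glucosidase gene Mogs at 0.95 ± 0.27 (adjusted p = 0.0767). The median of these 6 was 0.47, or 0.34 relative to all genes, and 3 of them were called higher with normexp background correction. The list leaves out Wdr54 (0.00) and Dctn1 (-0.22), with gaps of 27591 and 40790 bases against 40910 for Pcgf1. Neither was called. Farther away, Htra2, a mitochondrial protease whose gap to Ino80b is 67194 bases in the RefSeq table (GRCm38.p6), was called at a log2 fold change of 0.59 (adjusted p = 0.0464). Tlx2 (0.81), Dok1 (0.36), M1ap (0.06), Aup1 (-0.09), Dqx1 (-0.23) and Loxl3 (-0.54), also farther away, were not called. The genes off the list were named after their values were seen.

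Across the transcriptome 1325 of 20662 genes were called, 775 higher and 550 lower in Ino80b knockdown cells. Of these, 331 were at least 2-fold higher and 290 at least 2-fold lower. The median log2 fold change was 0.94 among the genes that rose and -1.03 among those that fell. Both Ino80b arrays lay above both NT arrays for 37.2% of all genes and below both for 21.2%, and the arrays of the 1325 called genes did not overlap. The median of all genes was 0.13, and in the authors' deposited values it was 0.00, so list medians below are also given relative to all genes. Counts of calls in a list are to be read beside the 6.41% called among all genes.

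The split between rises and falls depended on the scaling. Of the calls, 58.5% were rises as scaled here, 68.3% with normexp background correction, 53.1% with quantile normalization, 46.7% with median scaling and 38.04% in the authors' deposited values. The count rests on single arrays. Limma called 0 genes without the first Ino80b array (4490 at an unadjusted p under 0.05), 1 without the second, 36 without the second NT array and 2866 without the first. Without an Ino80c or an Ino80e array, which enter only through the shared estimate of spread, it called 403 or 362. It also called 0 genes when only the 4 arrays compared were fitted (4287 at an unadjusted p under 0.05). Of the 182 called genes named by rule, 0 and 1 kept the call without the first or the second Ino80b array, 14 without the second NT array and 151 without the first. All 182 kept their direction each time. This had to be so, since their arrays did not overlap and leaving out 1 array cannot turn the sign. Of the 1325 called genes, 446 were read on several probes, and all probes had the same sign for 349.

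**Figure D1:**
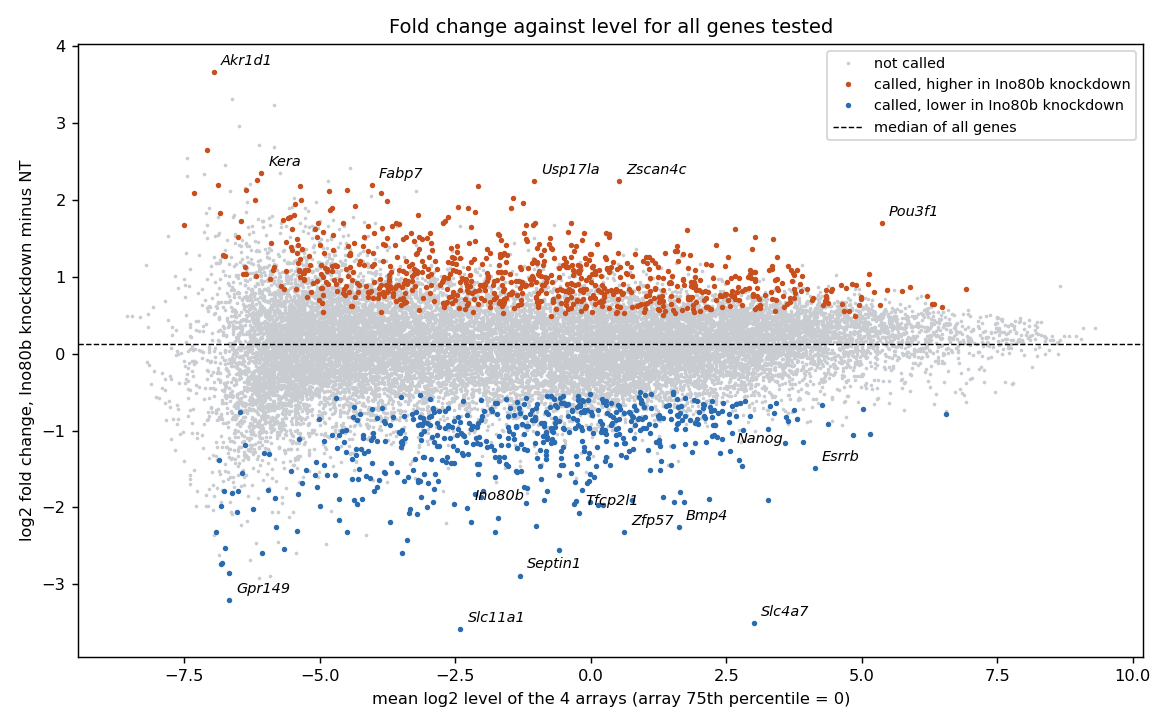
Log2 fold change of Ino80b knockdown over NT (vertical axis) against the mean log2 level of the 4 arrays (horizontal axis), with 1 point for each of the 20662 genes tested. The 775 genes called higher are orange, the 550 called lower blue and the others grey, and the dashed line at 0.13 is the median of all genes. Akr1d1 and Kera lie among the dimmest genes, whereas Slc4a7, Bmp4 and Zfp57 lie above the 75th percentile of the arrays.

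Core pluripotency factors were lower in Ino80b knockdown cells. Of the 5 on the list, Esrrb, Nanog and Pou5f1 fell and Sox2 and Sall4 were not called, and the list's median was -0.72, or -0.84 relative to all genes. Esrrb, an orphan nuclear receptor of the network, stood at 3.18 and 3.59 in Ino80b knockdown cells, against 4.57 and 5.18 in NT cells. Its log2 fold change was -1.49 ± 0.28 (adjusted p = 0.0327), and -0.93 on its other probe. Nanog stood at 1.78 and 2.08 in Ino80b knockdown cells, against 2.97 and 3.42 in NT cells (-1.26 ± 0.20, adjusted p = 0.0232). The Pou5f1 probe stood at 4.55 and 4.76 in Ino80b knockdown cells and at 5.22 and 5.53 in NT cells (-0.72 ± 0.15, adjusted p = 0.0415). The fall in Pou5f1 was thus smaller than those in Nanog and Esrrb in these values, a difference between genes that was not tested. The levels of Sox2 overlapped between the groups, at 3.35 and 3.39 in Ino80b knockdown cells and 3.48 and 3.33 in NT cells, with a log2 fold change of -0.04 ± 0.18. Sall4 had -0.51 ± 0.14 (adjusted p = 0.0756). In bulk RNA, fewer cells that express a gene and less of its RNA in each cell cannot be told apart. The 3 calls depended on single arrays. Their signs could not turn when 1 array was left out, since the arrays of the 2 groups did not overlap.

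Naive pluripotency factors followed. Of 13 tested, 6 fell and none rose (the list's median was -0.64, or -0.77 relative to all genes, and between -0.92 and -0.77 under the other scalings). Tfcp2l1, a transcription factor that sustains naive self-renewal downstream of LIF, had the largest fall on the list. It stood at -1.23 and -1.29 in Ino80b knockdown cells, against 0.67 and 0.94 in NT cells (-2.07 ± 0.16, adjusted p = 0.00861), and its other probe had -1.65. Tbx3, a T-box factor of the same circuit, stood at 1.02 and 1.47 in Ino80b knockdown cells, against 3.02 and 3.24 in NT cells (-1.89 ± 0.32, adjusted p = 0.0261). The Akt coactivator Tcl1 fell by 1.39 on the log2 scale, the zinc finger repressor Sall1 by 1.22, and the Krüppel-like factors Klf5 and Klf4 by 1.15 and 1.05. Klf2, another Krüppel-like factor, stood at 6.55 and 6.62 in Ino80b knockdown cells and at 6.51 and 6.65 in NT cells, with a log2 fold change of 0.00 ± 0.12. The nuclear receptor Nr5a2 (0.01 ± 0.21), the LIF effector Stat3 (0.16 ± 0.17, and -0.26 on its other probe) and Zfp42 (Rex1, -0.49 ± 0.19, adjusted p = 0.148) were not called either. Of the 6 falls, 1 stayed called without the second NT array and none without either Ino80b array.

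Of 19 other pluripotency-associated genes, 1 rose and none fell (5.26%, beside 6.41% of all genes), with a median of 0.05. The riser was Fut4 (0.80 ± 0.16, adjusted p = 0.0356), a fucosyltransferase gene. The abundant markers Dppa5a (0.05 ± 0.15) and Tdgf1 (-0.06 ± 0.18) were not called, and the chromatin-bound Utf1 had -0.77 ± 0.24 (adjusted p = 0.0935).

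**Figure D2:**
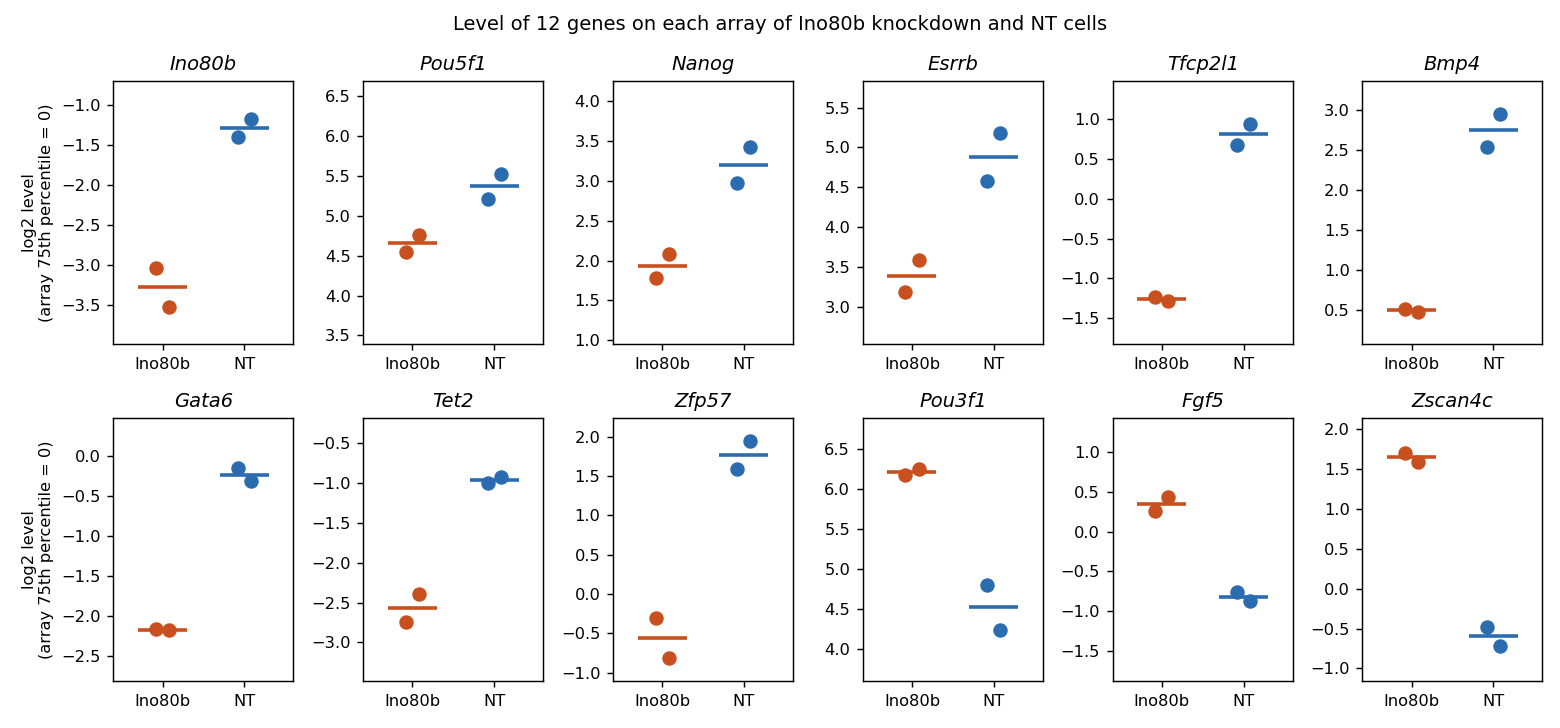
Log2 level (vertical axis, array 75th percentile = 0) of 12 genes on each of the 2 Ino80b arrays (orange, left) and 2 NT arrays (blue, right). Each point is 1 array and the bar is the mean of 2. The groups do not overlap in any of the 12 panels, with Pou3f1, Fgf5 and Zscan4c higher and the other 9 lower in Ino80b knockdown cells.

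Signalling pathways that act on the pluripotent state were followed gene by gene. LIF acts through Lifr and Il6st on Stat3, and of 15 genes of that pathway only the feedback inhibitor Socs2 was called (-0.78 ± 0.12, adjusted p = 0.0205). That is 6.67% of the list, beside 6.41% of all genes. The receptor chains Lifr (-0.33 ± 0.14) and Il6st (-0.36 ± 0.13) and the feedback inhibitor Socs3 (-0.08 ± 0.20) were not called. In the BMP pathway 1 of 22 genes rose and 1 fell (9.09%, beside 6.41% of all genes). Bmp4, the ligand that with LIF sustains self-renewal, was read on 10 replicate spots per array and stood at 0.51 and 0.47 in Ino80b knockdown cells, against 2.54 and 2.96 in NT cells (-2.26 ± 0.17, adjusted p = 0.00861). The ligand Bmp8b stood at -1.52 and -1.34 in Ino80b knockdown cells, against -2.64 and -2.55 in NT cells (1.17 ± 0.12, adjusted p = 0.0135). The Id genes are known BMP targets, and among them Id1 (-0.39 ± 0.42) and Id3 (-0.10 ± 0.22) were not called. Limma called 0 of the 18 Nodal pathway genes, with Nodal at -0.11 ± 0.18 and its inhibitor Lefty1 at 0.57 ± 0.46. In the FGF and ERK pathway 1 of 23 rose and 2 fell. The riser was the ligand Fgf5, while the ligand Fgf17 (-0.98 ± 0.21, adjusted p = 0.0430) and Etv4, a transcription factor induced by ERK signalling (-0.65 ± 0.14, adjusted p = 0.0413), were lower in Ino80b knockdown cells.

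Of 18 genes of the primed epiblast, 5 rose and 1 fell, with a median of 0.33, or 0.20 relative to all genes. Pou3f1 (Oct6), a POU factor of the epiblast, stood at 6.18 and 6.25 in Ino80b knockdown cells, against 4.80 and 4.24 in NT cells (1.70 ± 0.22, adjusted p = 0.0145). Fgf5, the classic epiblast marker, stood at 0.26 and 0.43 in Ino80b knockdown cells, against -0.76 and -0.88 in NT cells (1.16 ± 0.25, adjusted p = 0.0449). Smaller rises were seen in the zinc finger gene Sall2 (0.99 ± 0.13), in Otx2 (0.61 ± 0.13), a homeodomain factor of the primed state, and in the de novo methyltransferase Dnmt3b (0.55 ± 0.11). The repressor Foxd3 fell by 0.66 on the log2 scale. The neural-plate factors Zic2 (0.00 ± 0.40) and Sox3 (0.13 ± 0.29) were not called. The 6 calls kept their direction under each alternative, but only 2 of the 6 stayed called with median scaling and 0 without the second NT array or without either Ino80b array.

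Genes of the primitive endoderm, the extraembryonic layer that lies against the epiblast, were divided. Of 17 tested, 8 fell and none rose, with a median of -0.74. Gata6, the transcription factor that specifies the lineage, stood at -2.17 and -2.18 in Ino80b knockdown cells, against -0.15 and -0.31 in NT cells (-1.94 ± 0.19, adjusted p = 0.0117). A further Gata6 probe had -1.93, and the dimmest of the 3 had -0.23. Sox7 and Sox17, SOX factors of the endoderm, fell by 1.99 and 1.57 on the log2 scale. The PDGF receptor Pdgfra, a surface marker of the lineage, fell by 1.78, the cubilin receptor Cubn by 1.75, its partner Amn by 0.95, the endocytic adaptor Dab2 by 0.97 and the proteoglycan Srgn by 2.55. Gata4 (-0.74 ± 0.23, adjusted p = 0.0930) was not called on its brightest probe, while its other probe, not well above background on either Ino80b array, had -2.45 (adjusted p over probes = 0.0336). Foxa2, a forkhead factor of endoderm and node, had a difference of the other sign, at -0.28 and -0.70 in Ino80b knockdown cells and -1.37 and -2.31 in NT cells (1.35 ± 0.32, adjusted p = 0.0526). All 8 falls stayed called under the 4 other scalings, 2 of them without the second NT array and none without either Ino80b array. With normexp background correction 3 members were called higher as well, and the median relative to all genes was -0.30, against -0.87 as scaled here.

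Of 19 basement membrane genes 3 also fell and none rose, with a median of -0.05. They were Col4a2, Col4a1 and Lama1, whose products form the collagen IV and laminin networks. Col4a2 stood at -1.04 and -1.22 in Ino80b knockdown cells, against 0.45 and 0.62 in NT cells (-1.66 ± 0.15, adjusted p = 0.00979). Col4a1 fell by 1.36 and Lama1 by 1.40 on the log2 scale. The further probes of Col4a2 (-1.61), Col4a1 (-1.30) and Lama1 (-0.59) had the same sign. Of 18 trophectoderm genes 3 fell and none rose, with a median of 0.01. Among them were the gap junction gene Gjb5 (-1.98 ± 0.14, adjusted p = 0.00861) and the transcription factor Tead4 (-1.14 ± 0.21, adjusted p = 0.0323). Cdx2, the factor that defines that lineage, had 0.18 ± 0.12 and was not called. Gjb5 is also on the list of 23 epithelial junction genes, where Jup (plakoglobin) fell by 1.09 on the log2 scale and the claudin Cldn7 rose (0.63 ± 0.12), with Cdh1 (E-cadherin) at 0.35 ± 0.13 and not called.

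Among 22 genes of the primitive streak and of the Wnt response, 3 fell and none rose, with a median of -0.11. The homeobox gene Evx1 stood at -3.87 and -3.87 in Ino80b knockdown cells, against -2.02 and -2.57 in NT cells (-1.57 ± 0.33, adjusted p = 0.0403). The Wnt antagonist Dkk1 fell by 1.57 and the Wnt receptor Fzd5 by 1.26 on the log2 scale. Brachyury (T, 0.53 ± 0.34) and Eomes (-0.16 ± 0.28), which mark the streak, were not called.

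Genes of the state that resembles the 2-cell embryo were higher in Ino80b knockdown cells. Of 9 tested, 7 rose and none fell, with a median of 1.63, or 1.51 relative to all genes and between 0.70 and 1.51 under the other scalings. Zscan4c, a zinc finger gene that marks this state, stood at 1.70 and 1.59 in Ino80b knockdown cells, against -0.48 and -0.72 in NT cells (2.24 ± 0.22, adjusted p = 0.0117), and its other probe had 1.68. The deubiquitinase gene Usp17la stood at 0.11 and 0.03 in Ino80b knockdown cells, against -1.96 and -2.39 in NT cells (2.25 ± 0.25, adjusted p = 0.0138). The Tcstv1 probe stood at -0.05 and -0.48 in Ino80b knockdown cells and at -1.996 and -2.45 in NT cells (1.96 ± 0.33, adjusted p = 0.0258). Its 3 probes ranged from 1.91 to 2.01, and the probes of the related Tcstv3 had 1.90 and 3.03. Usp17lb (1.31 ± 0.22), Zfp352 (1.63 ± 0.31) and Sp110 (1.24 ± 0.18) rose too. These genes belong to families of near-identical copies, so a probe may read more than the named copy. The brightest probes of Tcstv1 and Tcstv3 share no run longer than 5 bases, and those of Usp17la and Usp17lb none longer than 6. That sets probes against each other and not against the transcripts of other copies, so it cannot show which copy a probe reads. All 7 calls held under the 4 other scalings, and 0 held without the second NT array or without either Ino80b array. The log2 fold changes of Zscan4c against the same NT arrays were 2.83 in Ino80, 2.24 in Ino80c and 1.68 in Ino80e knockdown cells.

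**Figure D3:**
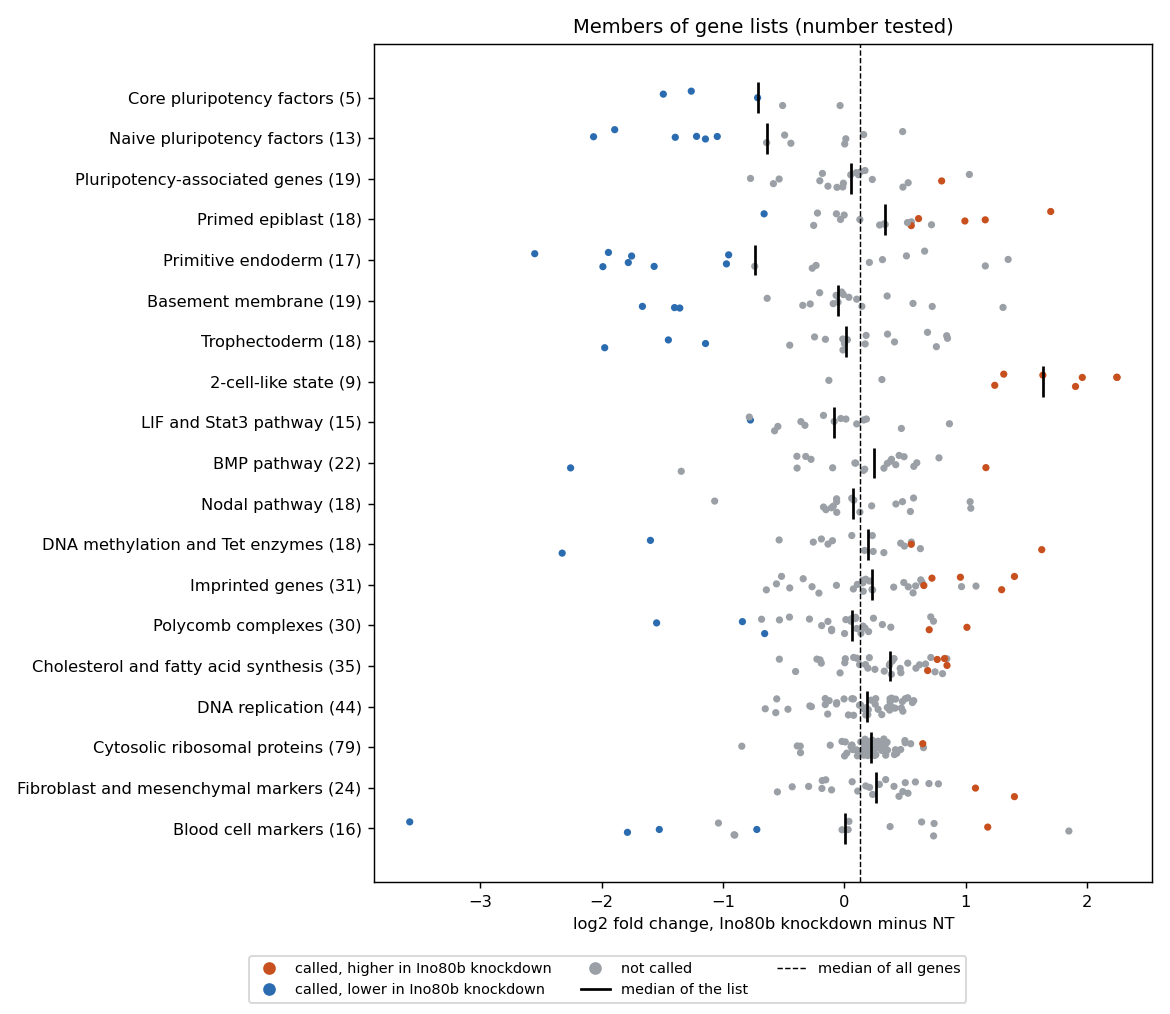
Log2 fold changes of Ino80b knockdown over NT (horizontal axis) for the members of 19 gene lists, with the number tested in brackets. Each point is a gene, orange if called higher, blue if called lower and grey if not called, the black bar is the list's median and the dashed line is the median of all genes at 0.13. The medians of the core pluripotency (-0.72), naive pluripotency (-0.64) and primitive endoderm (-0.74) lists lie left of that line and that of the 2-cell-like list (1.63) lies right of it.

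Genes that write, erase and protect DNA methylation moved both ways, with 2 of 18 higher and 2 lower. Zfp57, the zinc finger protein that keeps methylation at imprinted regions, stood at -0.30 and -0.82 in Ino80b knockdown cells, against 1.59 and 1.95 in NT cells (-2.33 ± 0.29, adjusted p = 0.0142). Tet2, which oxidises methylcytosine, stood at -2.74 and -2.39 in Ino80b knockdown cells, against -1.001 and -0.93 in NT cells (-1.60 ± 0.17, adjusted p = 0.0133), and its other probe had -1.44. Gadd45g, linked to demethylation and to growth arrest, stood at 3.47 and 3.47 in Ino80b knockdown cells, against 2.20 and 1.49 in NT cells (1.62 ± 0.28, adjusted p = 0.0278). Dnmt3b rose as given above, while the maintenance enzyme Dnmt1 (-0.26 ± 0.12) and Dnmt3a (0.55 ± 0.22) were not called. Of 31 imprinted genes 5 rose and none fell, with a median of 0.23, or 0.10 relative to all genes. They were Dcn (1.40 ± 0.32), Sgce (1.29 ± 0.29), Magel2 (0.95 ± 0.15), Dlk1 (0.72 ± 0.12) and Impact (0.65 ± 0.15). The other probes of Sgce and Dlk1 had 0.98 and 0.08. With median scaling 1 of the 31 was called. H19 (0.41 ± 0.22) and Igf2 (0.64 ± 0.18, adjusted p = 0.0788) were not called.

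Among other chromatin genes, 2 of 30 polycomb members rose and 3 fell (16.7%, beside 6.41% of all genes), with a median of 0.07. Pcgf2 (Mel18), a ring finger subunit of polycomb repressive complex 1, stood at -0.93 and -1.33 in Ino80b knockdown cells, against 0.08 and 0.75 in NT cells (-1.55 ± 0.32, adjusted p = 0.0407). Kdm2b, which binds unmethylated CpG islands, fell by 0.84 on the log2 scale and the ubiquitin ligase Ring1 by 0.66. Yaf2 (1.01 ± 0.23) and Phc2 (0.70 ± 0.12), further subunits of that complex, rose. Ezh2 (-0.19 ± 0.12) and Suz12 (-0.11 ± 0.14) of complex 2 were not called. Of 41 genes of other remodelling complexes 2 rose and 1 fell (7.32%). Smarcd3, a subunit of BAF, fell by 1.45 on the log2 scale and the ISWI ATPase Smarca1 rose (0.88 ± 0.19, adjusted p = 0.0442). Chd7 was called higher on its brightest probe (1.13 ± 0.15), but its 3 probes ranged from -0.85 to 1.13 and their mean gave -0.08, so its direction is uncertain. The core BAF ATPase Smarca4 had 0.47 ± 0.16 and was not called, with -0.16 and -0.50 on its other probes. Among 15 genes of small RNA processing Dicer1 rose (0.81 ± 0.15), with -0.04 on its other probe.

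Calls among cell cycle genes lay in the G1 list. Of 27 G1 regulators 3 fell and 2 rose, which is 18.5% of the list beside 6.41% of all genes, with a median of 0.01. Ccnd3, the D-type cyclin prominent in embryonic stem cells, stood at 3.07 and 2.93 in Ino80b knockdown cells, against 4.08 and 4.25 in NT cells (-1.17 ± 0.14, adjusted p = 0.0138). E2f2 and Cdk2 fell by 0.84 and 0.78 on the log2 scale. The repressor E2f7 (0.63 ± 0.12) and Cdkn2a, which encodes p16 and p19Arf (1.103 ± 0.18, adjusted p = 0.0256), rose. Limma called 0 of 44 DNA replication genes, with Mcm2 at -0.14 ± 0.13 and Pcna at 0.19 ± 0.13. Of 30 p53 pathway genes Fas rose (0.72 ± 0.11) and Mdm4 fell by 0.71 on the log2 scale. That is 6.67% of the list, near the 6.41% of all genes. Trp53 had -1.01 ± 0.36 (adjusted p = 0.122) and Cdkn1a -0.45 ± 0.33, neither of them called. The other Trp53 probe had -0.14, and the Mdm4 probes ranged from -0.87 to 0.08. Of 38 damage response genes Parp2 and Prkdc fell, by 0.68 and 0.55 on the log2 scale. They make up 5.26% of the list, also near the share over all genes.

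Metabolic, stress and housekeeping lists were read next. Of 35 genes of cholesterol and fatty acid synthesis 4 rose and none fell, with a median of 0.37, or 0.25 relative to all genes. They were the fatty acid synthase Fasn (0.84 ± 0.16), the sterol sensor chaperone Scap (0.82 ± 0.18), and Dhcr7 (0.76 ± 0.14) and Sc5d (0.69 ± 0.14), which act late in cholesterol synthesis. The other Dhcr7 probe had -0.52, and with median scaling 0 of the 35 were called. The squalene epoxidase Sqle (0.37 ± 0.17) was not called. Limma called 0 of 34 glycolysis and hypoxia genes, 1 of 46 respiratory chain genes (Sdha, lower), 1 of 79 ribosomal protein genes (Rps26, higher) and 0 of 20 histone variant and chaperone genes. Of 33 integrated stress response genes only the phosphatase subunit Ppp1r15a was called, and it fell by 0.83 on the log2 scale. That list's median was -0.09, or -0.22 relative to all genes. Among 33 interferon and RNA-sensing genes 2 rose and 3 fell (15.2%, beside 6.41% of all genes). Isg15, a ubiquitin-like protein, and the transcription factor Irf1 were higher (1.68 ± 0.25 and 1.26 ± 0.21), and the sensor Ddx58 (RIG-I) and the synthetases Oas1a and Oas2 fell by 1.32, 1.07 and 0.90 on the log2 scale. Of 36 germline genes 3 rose and 1 fell (11.1%). The meiotic nuclease Spo11 (1.55 ± 0.33), the Tudor protein Tdrd1 (1.29 ± 0.17) and Rhox6 (0.80 ± 0.14) rose, and the receptor Kit fell by 1.79. Of 326 olfactory receptor genes 12 rose and 1 fell (3.99%, below the share over all genes), with a median of 0.10. Among those called, Olfr979 was not well above background in either group. Limma called 0 of 24 Hox genes, with Hoxb2 at 1.74 ± 0.42 and Hoxa7 at 1.03 ± 0.25 (adjusted p = 0.0539 for both).

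Markers of other cell types were read beside these groups. Of 24 fibroblast and mesenchymal markers Twist2 and Dcn were called, both higher. Their 24 linear signals, in units of the array's 75th percentile, summed to 61.4 and 56.4 on the Ino80b arrays and to 67.9 and 65.0 on the NT arrays. Such sums are set mostly by the brightest probes. The list's median log2 fold change had the other sign, at 0.26, or 0.13 relative to all genes. The collagen genes Col1a1 (0.45 ± 0.26, and -0.81 on its other probe) and Col1a2 (0.58 ± 0.27) were not called. Of 16 blood cell markers 1 rose (Tal1, 1.18 ± 0.25) and 4 fell (Slc11a1, Kit, Laptm5 and Gata1), and the 16 summed to 7.11 and 7.38 on the Ino80b arrays and to 8.13 and 9.33 on the NT arrays. Their median log2 fold change was 0.01, or -0.12 relative to all genes. The pan-leukocyte marker Ptprc was well above background on both Ino80b arrays and on neither NT array, at least 2.08-fold higher but not called (adjusted p = 0.1075). Of 22 neural markers Fabp7 rose, and the early neural factors Pax6 (0.25 ± 0.29, and -0.18 on its other probe) and Sox1 (-0.01 ± 0.28) were not called. What part other cell types have in the results was not tested.

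Among the largest falls, Slc11a1 (Nramp1), a metal ion transporter known from macrophages, stood at -4.44 and -3.96 in Ino80b knockdown cells, against -0.87 and -0.36 in NT cells (-3.58 ± 0.28, adjusted p = 0.00861). The bicarbonate transporter Slc4a7 stood at 1.75 and 0.76 in Ino80b knockdown cells and at 3.70 and 5.81 in NT cells (-3.50 ± 0.68, adjusted p = 0.0350), so that its NT arrays were the farther apart. Over the whole list of 295 solute carrier genes 18 rose and 11 fell (9.83%, beside 6.41% of all genes), with a median of 0.15. The septin gene Septin1 stood at -2.62 and -2.88 in Ino80b knockdown cells, against -0.31 and 0.58 in NT cells (-2.89 ± 0.28, adjusted p = 0.0117). Parvb (beta-parvin), an adhesion adaptor, fell by 2.25 on the log2 scale, the forkhead gene Foxp4 by 2.33, Ampd3, an AMP deaminase, by 2.31 and the lectin gene Lgals9 by 2.19. The other probes of Parvb, Foxp4 and Ampd3 had log2 fold changes of -2.06, -2.06 and -0.31. Of the 20 largest falls, 7 were in genes not well above background on either Ino80b array, for which the fold is a lower bound. For that bound the dim arrays enter at the lowest signal still well above background, or at the probe's own where higher. It was at least 3.33-fold lower for Fcrl5, 3.08-fold for Zscan5b, 2.51-fold for S100g, 2.35-fold for Prdm6, 1.91-fold for Gpr149, 1.69-fold for Islr2 and 1.43-fold for Tbx22. The other Fcrl5 probe, well above background on the arrays of both groups, had a log2 fold change of -0.08 ± 0.51, so the fall of Fcrl5 rests on 1 probe.

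Among the largest rises outside the groups above, Fabp7, which encodes a fatty acid binding protein of neural progenitors, stood at -3.03 and -2.86 in Ino80b knockdown cells, against -4.73 and -5.54 in NT cells (2.19 ± 0.28, adjusted p = 0.0149). Kynu, a kynureninase of tryptophan breakdown, stood at -2.88 and -2.67 in Ino80b knockdown cells, against -4.43 and -5.09 in NT cells (1.99 ± 0.22, adjusted p = 0.0138). The galectin gene Lgals4 stood at -0.46 and -0.58 in Ino80b knockdown cells, against -2.12 and -2.71 in NT cells (1.89 ± 0.24, adjusted p = 0.0144), with 0.07 on its other probe. Rasgrp3, an activator of Ras, had 2.12 ± 0.42 and the carboxypeptidase gene Cpb1 1.89 ± 0.29. The lipase gene Pnlip was not well above background in NT cells and was at least 4.01-fold higher in Ino80b knockdown cells. Its other probe, well above background on 1 array of each of the groups, had a log2 fold change of 0.71 ± 0.38.

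Akr1d1, Kera and Itpr2 were then compared directly with the other knockdowns. The NT arrays enter these differences only through the shared estimate of spread. Akr1d1, a steroid reductase of bile acid synthesis, stood at -4.78 and -5.48 in Ino80b knockdown cells. It stood between -8.13 and -8.47 on the 6 arrays of the other knockdowns and at -8.78 and -8.81 in NT cells. It was not well above background in NT cells, and the rise was at least 2.56-fold (adjusted p = 0.00861). The measured log2 fold change was 3.67 ± 0.24, but 0.59 in the authors' deposited values, which hold no background subtraction, and 0.65 with normexp background correction. Kera (keratocan), a corneal proteoglycan, stood at -5.27 and -4.54 in Ino80b knockdown cells, between -7.97 and -8.63 in the other knockdowns and at -7.41 and -7.10 in NT cells. It was at least 2.995-fold higher than in NT cells (adjusted p = 0.0138), with a log2 fold change of 2.35 ± 0.28, and 0.44 in the authors' deposited values or 0.51 with normexp background correction. Of 20662 genes these 2 were called in all 3 direct comparisons. Neither was well above background on any array of the other knockdowns, so both passed the filter on dim probes through the Ino80b arrays, where they are high, and the differences are lower bounds. Akr1d1 was at least 2.30-fold, 1.88-fold and 1.87-fold higher, and Kera at least 2.69-fold, 2.20-fold and 2.18-fold higher, than in Ino80, Ino80c and Ino80e knockdown cells. With normexp background correction neither was called in any of the 3, at log2 differences of 0.75, 0.43 and 0.27 for Akr1d1 and 0.54, 0.40 and 0.31 for Kera against Ino80, Ino80c and Ino80e.

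Itpr2, an inositol trisphosphate receptor that releases calcium from the endoplasmic reticulum, rose on some of its probes. Probe 1 printed above stood at -1.21 and -1.24 in Ino80b knockdown cells, against -2.87 and -3.25 in NT cells (1.84 ± 0.17, adjusted p over probes = 0.0110). Probe 2, which starts 184 bases further along the chromosome, stood at -3.16 and -3.24 in Ino80b knockdown cells and at -4.31 and -4.75 in NT cells (1.33 ± 0.19, adjusted p = 0.0201). The other two start 180053 and 259867 bases away and were not well above background on either Ino80b array. Their log2 fold changes were -0.79 ± 0.75 and -0.44 ± 0.30 (adjusted p = 0.522 and 0.366). All 4 lie on the minus strand, so the probes that rose are the ones nearest the 3′ end. The mean over its probes gave no call for Itpr2 against NT (0.48, adjusted p = 0.310) or against Ino80 (0.17, adjusted p = 0.883). On probe 1 the log2 fold change against NT was -0.17 in Ino80, 0.24 in Ino80c and -0.40 in Ino80e knockdown cells. In the direct comparisons that probe was called higher than in Ino80 and Ino80e knockdown cells, and it was not called against Ino80c.

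Set against the Ino80 knockdown, which shared the slide with the Ino80b arrays, 14 genes (0.0678% of those tested) were called, 12 higher (0.0581%) and 2 lower (0.00968%) in Ino80b knockdown cells. Ino80 itself was higher in Ino80b knockdown cells, as the other group's target. Ino80b, the target here, was not called against Ino80, nor was it against Ino80c or Ino80e. Foxa2 stood at -0.28 and -0.70 in Ino80b knockdown cells, against -3.71 and -3.96 in Ino80 knockdown cells (3.34 ± 0.32, adjusted p = 0.0302). The growth factor gene Fgf18 differed by 2.62 ± 0.27, the X-linked homeobox gene Rhox5 by 2.42 ± 0.20 and Khdc3, a maternal-effect gene, by 2.02 ± 0.19, and none of those 3 was called against NT. Nrcam, a neural adhesion molecule, stood at -0.73 and -0.15 in Ino80b knockdown cells, against -2.55 and -2.41 in Ino80 knockdown cells (2.04 ± 0.21, adjusted p = 0.0415) and -1.79 and -2.02 in NT cells. No core or naive pluripotency factor and no 2-cell-like gene was called between Ino80b and Ino80 knockdown cells. Without the first Ino80 array 1 gene was called higher and 5 lower, and without the second 0 higher and 2 lower, so the direction of the calls rests on single arrays. Limma called 0 genes in this comparison when only those 4 arrays were fitted (1769 at an unadjusted p under 0.05), 0 without the first Ino80b array (1183) and 0 without either Ino80c array (1682).

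Against Ino80c 6 genes were called (0.029%), 3 in each direction (0.0145% each), and 0 without either Ino80c array (1747 and 1289 at an unadjusted p under 0.05). The split was 2 higher and 11 lower with normexp background correction, 2 and 10 with probes well above background on all arrays, 4 and 36 with array weights, and 2 and 0 with quantile normalization. Beside Akr1d1, Kera and Ino80c itself, which were higher in Ino80b knockdown cells, the olfactory receptor gene Olfr533, the retinol dehydrogenase Dhrs9 and 4921511C04Rik, named after its value was seen, were lower. Olfr533 and Dhrs9 were not well above background on either Ino80b array and were at least 1.95-fold and 1.36-fold lower. Both passed the filter on dim probes only through the Ino80c arrays, where they are high, so these calls are not independent of the filter. Against Ino80e 143 genes (0.692%) were called, 51 higher and 92 lower in Ino80b knockdown cells, as 0.247% and 0.445% of those tested. The Ino80c and Ino80e arrays lay on another slide than the Ino80b arrays, so slide and siRNA cannot be told apart in either comparison. Of the 17 primitive endoderm genes 7 were lower than in Ino80e knockdown cells (Gata6, Sox7, Pdgfra, Dab2, Cubn, Amn and Srgn) and none was higher. The median log2 fold change of that list against NT was 0.49 in Ino80e knockdown cells, or 0.30 relative to all genes. It was -0.74 in Ino80b, -1.10 in Ino80 and -0.06 in Ino80c knockdown cells. Relative to all genes these were -0.87, -1.27 and -0.32. Cubn stood at -2.10 and -2.03 in Ino80b knockdown cells, against 0.82 and 1.096 in Ino80e knockdown cells (-3.02 ± 0.29, adjusted p = 0.0118). Sox7 stood at -4.04 and -3.98 in Ino80b knockdown cells and at -1.62 and -1.31 in Ino80e knockdown cells (-2.55 ± 0.25, adjusted p = 0.0118). Of the 13 naive factors Tfcp2l1 alone was called lower, and of the 18 primed epiblast genes Sall2 alone was called higher. Fabp7, Kynu, the methyltransferase-like gene Mettl24, the protocadherin Pcdh18 and the cardiac cofactor Zfpm2 were higher in Ino80b than in Ino80e knockdown cells, by 2.30, 2.15, 1.83, 1.77 and 1.88 on the log2 scale. Zfpm2 was not well above background in Ino80e knockdown cells and was at least 3.43-fold higher. Without either Ino80e array 0 genes were called, with 2556 and 1461 at an unadjusted p under 0.05.

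**Figure D4:**
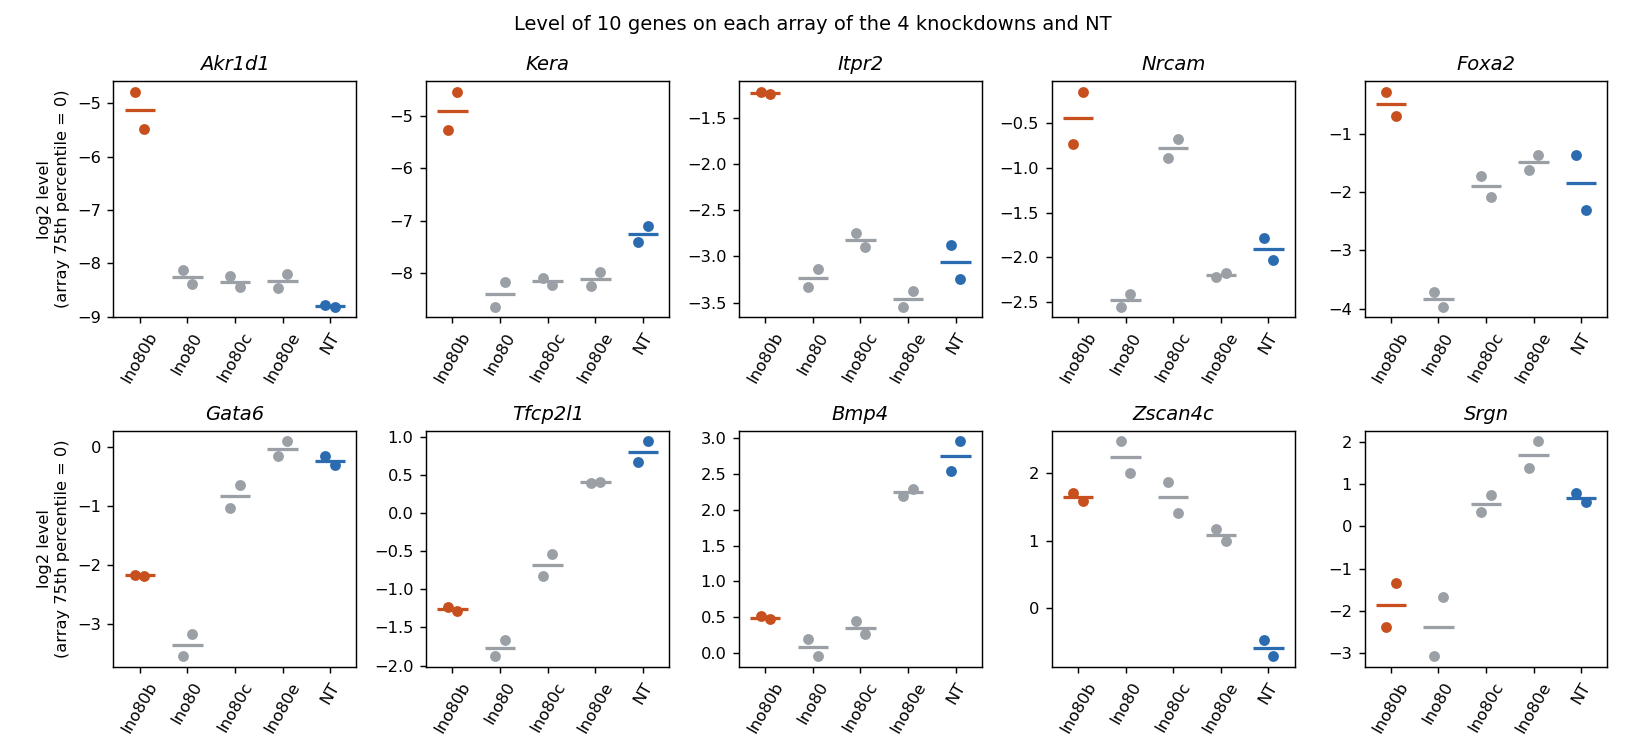
Log2 level (vertical axis, array 75th percentile = 0) of 10 genes on each array of Ino80b knockdown (orange), Ino80, Ino80c and Ino80e knockdown (grey) and NT cells (blue), with 2 points and their mean for each group. Akr1d1, Kera and Itpr2 are highest on the Ino80b arrays, and Gata6, Tfcp2l1 and Srgn are lower on the Ino80b arrays than on the Ino80e and NT arrays.

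**Figure D5:**
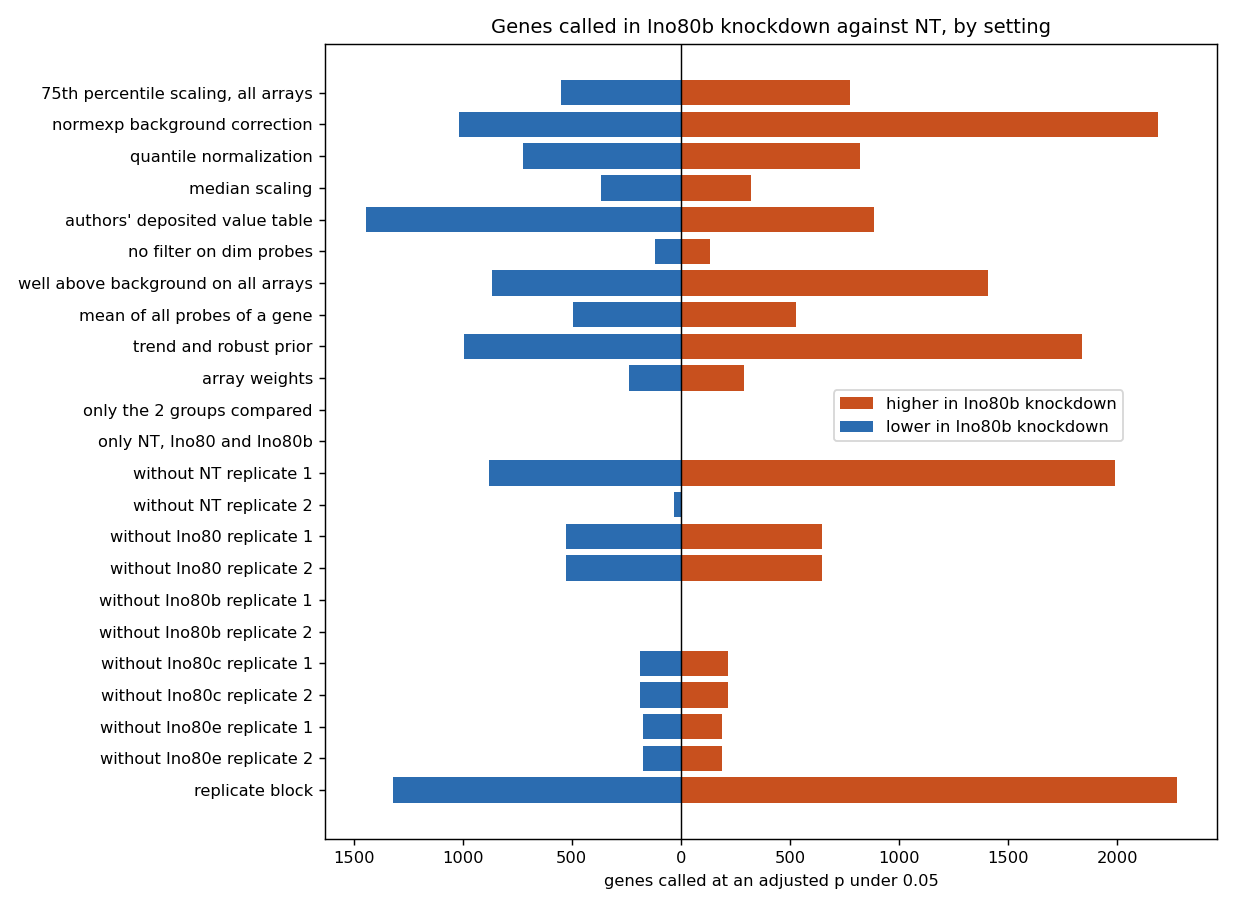
Number of genes called at an adjusted p under 0.05 in Ino80b knockdown against NT cells (horizontal axis) under each setting (vertical axis), with genes higher in Ino80b knockdown cells to the right in orange and lower ones to the left in blue. The top bar holds 775 and 550 genes, and the bars for fits without an Ino80b array, without the second NT array or with only the arrays compared hold at most 36.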

How the data were processed

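The authors hybridised each sample to 1 Agilent 4x44K mouse array, read in 1 colour (green, although the labels name Cy5). Feature Extraction 9.5.3.1 read the scans, per the file headers, and each deposited file holds the intensity of 45018 spots as a background-subtracted, detrended processed signal that was not scaled between arrays. In the value table that the authors deposited, each log2 value equals the log2 mean signal without background subtraction plus 1 constant per array, whose origin the labels do not state. Its column medians lay between 6.76 and 6.87.

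Control and flagged spots were left out and spots of a probe averaged, which left 41143 probes. Levels are log2 processed signals minus the array's 75th percentile. Probes were kept where 1 or more groups had both arrays well above background (29587 probes), and the brightest stood for its gene. RefSeq (GRCm38.p6) named 22925 probes through their accession, and 18218 others kept the array's name. Limma 3.58.1 in R 4.3.3 (lmFit, eBayes) fitted group over all 10 arrays, with 5 residual and 2.23 prior degrees of freedom. No spot was saturated, and the number of arrays limits the precision.

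The members and gene lists were chosen with earlier results of these data known. Genes named are members of the INO80, neighbour and core pluripotency lists, called members of the 42 lists with up to 4 uncalled ones, the 20 largest called rises and falls with RefSeq symbols and arrays that do not overlap, and the 10 largest called differences in each direction from each other knockdown. The fit was tested on simulated data. Alternatives were normexp (offset 50), quantile and median scaling, the deposited values, other filters, probe means, priors and weights, fewer groups, each array left out and a replicate block. The labels tie replicate numbers to no shared batch, and groups hold 2 numbers, too few for the arrays to show a pairing, so the block is an alternative.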

Additional observations from a re-analysis of the deposited data

Results flagged for a closer look

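The results here are genes whose effect differed between Ino80b knockdown and another knockdown by the direct comparison in limma, which equals the difference of their 2 effects against NT. Values are log2 differences, Ino80b minus the other knockdown, and up to 10 named genes per direction and comparison are given. For genes that neither array of 1 group measured above background, the log2 difference has no true low side, and a lower bound of the fold is given too.

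Against the Ino80 knockdown, Kera (3.49), Foxa2 (3.34), Akr1d1 (3.12), Fgf18 (2.62), Rhox5 (2.42), Fbp1 (2.11), Nrcam (2.04), Khdc3 (2.02), Itpr2 (2.01) and Pla2g1b (1.85) were higher in Ino80b knockdown cells. Itpr2 is given here and below on its brightest probe, and the mean over its probes gave no call against Ino80. Kera and Akr1d1 were not well above background in Ino80 knockdown cells and were at least 2.69-fold and 2.30-fold higher. Lce1d (-3.44) was lower, at least 2.19-fold, and not well above background in Ino80b knockdown cells. It passed the filter on dim probes only through the Ino80 arrays, where it is high. Against the Ino80c knockdown, Kera (3.25), Akr1d1 (3.21) and Ino80c (2.77), the target of the other siRNA, were higher, and Olfr533 (-2.95) and Dhrs9 (-2.76) were lower. The bounds are at least 2.20-fold for Kera and 1.88-fold for Akr1d1, dim in Ino80c knockdown cells, and at least 1.95-fold for Olfr533 and 1.36-fold for Dhrs9, dim in Ino80b knockdown cells. Olfr533 and Dhrs9 passed the filter on dim probes only through the Ino80c arrays, where they are high.

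Against the Ino80e knockdown, Akr1d1 (3.20), Kera (3.20), Fabp7 (2.30), Itpr2 (2.24), Kynu (2.15), Zfpm2 (1.88), Mettl24 (1.83), Pcdh18 (1.77), Nrcam (1.76) and Btbd17 (1.68) were higher in Ino80b knockdown cells. Srgn (-3.56), Tfec (-3.09), Cubn (-3.02), Naip6 (-2.96), Slc11a1 (-2.88), Cyp4f14 (-2.66), Aqp8 (-2.58), Sox7 (-2.55), S100g (-2.51) and Klb (-2.47) were lower. Akr1d1, Kera and Zfpm2 were not well above background in Ino80e knockdown cells and were at least 1.87-fold, 2.18-fold and 3.43-fold higher. Naip6 and S100g were not well above background in Ino80b knockdown cells and were at least 5.13-fold and 2.997-fold lower. Groups of 2 arrays are too small for a test of single outlying arrays.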

How the results depend on the processing

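The arrays limit what can be said: groups hold 2 arrays, NT lies alone on its slide, and Ino80c and Ino80e lie on another slide than Ino80b. Leaving out 1 array at a time gave 0 to 2866 calls against NT (1325 with all), 0 to 9 against Ino80 (14), 0 to 8 against Ino80c (6) and 0 to 139 against Ino80e (143), and a log2 fold change of Ino80b RNA between -2.24 and -1.76. Calls against NT were 3203 with normexp, 687 with median scaling, 2329 in the deposited values, 252 with no filter on dim probes, 2277 with probes well above background on all arrays, 2834 with a trended robust prior, 528 with array weights, and 0 with only the 2 groups compared or only NT, Ino80 and Ino80b. With the replicate block they were 3593, where same-numbered arrays deviated together at r = 0.30 for Ino80b and NT and between 0.00434 and 0.32 over the 10 pairs of groups. Against Ino80 the counts were 49 with normexp, 25 with quantile normalization, 24 in the deposited values, 47 with the trended robust prior, 55 with the replicate block and 0 with no filter, with only the 2 groups or with only NT, Ino80 and Ino80b. Against Ino80c they were 13 with normexp, 2 with quantile normalization, 1 with no filter, 12 with all arrays well above background, 40 with array weights and 0 with only the 2 groups. Against Ino80e they were 476 with normexp, 88 with median scaling, 413 in the deposited values, 46 with no filter, 311 with all arrays well above background, 371 with the trended robust prior, 720 with array weights, 841 with the replicate block and 0 with only the 2 groups. Ino80b RNA kept its log2 fold change of -2.003 but not its call with no filter (adjusted p = 0.0624), with only the 2 groups (0.142) and with only NT, Ino80 and Ino80b (0.118). Those last fits differ by construction, in that fewer arrays estimate the spread or, with no filter, more genes are tested. Their part in the loss was not tested, nor was the cause of the other changes. Reversed were Chd7 against NT with the mean of all probes (-0.0805) and Dhrs9 against Ino80c with no filter (0.108).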
